A study of Bos taurus with 11 samples.

Results

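The miR-34 and miR-449 miRNAs were examined in mammary gland (MG) biopsies of lactating dairy cows. Members were the rows of the deposited count table named bta-miR-34a, bta-miR-34b, bta-miR-34c, bta-miR-449a, bta-miR-449b and bta-miR-449c, which are 6 of the 796 miRNAs listed. Reads were counted for 5 of them, and 4 reached the minimum of 10 reads summed over all libraries that the breed comparison required. Each cow gave 1 small RNA library, 5 from Holstein and 6 from Montbéliarde, named here by breed and tag (CNLX1 to CNLX9 for Holstein, CNLX13 to CNLX23 for Montbéliarde). The tags follow the breeds, and the labels do not say what the tags record. Any effect that goes with the tags cannot be told apart from the breed. All cows were in mid-lactation and received the same diet, and the ages of the cows are not in the labels. A biopsy holds epithelium, stroma, vessels and blood together, so that fewer cells of a type and less RNA per cell cannot be told apart. The 6 epithelial miRNAs examined as a check of the tissue (*miR-200a*, *miR-200b*, *miR-200c*, *miR-141*, *miR-429* and *miR-205*) had reads in every library.

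MiR-34 and miR-449 miRNAs form 1 family because they share the seed, the stretch near the 5′ end that pairs with target mRNAs. *MiR-34a* is known as a direct transcriptional target of p53 that slows the cell cycle and favours apoptosis, and *miR-34b* and *miR-34c* are processed from a common precursor transcript that p53 also activates. The miR-449 miRNAs are transcribed with *CDC20B* and are known for high levels in multiciliated epithelia such as those of the airway and the oviduct, where both branches of the family act together in the formation of motile cilia. The secretory epithelium of the MG is not a multiciliated epithelium. In the RefSeq annotation of a later bovine assembly than that of the study, *MIR34A* lies within the span of *GPR157*, and *MIR34B* and *MIR34C* lie together within the spans of *BTG4* and *HOATZ*. *MIR449A*, *MIR449B* and *MIR449C* lie within *CDC20B*, next to *MCIDAS* and *CCNO*, which are known regulators of multiciliated cell differentiation.

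*MiR-34a* was the main member in every library and *miR-34c* the second, whereas *miR-449a* was rare and *miR-449b* and *miR-449c* were all but absent. Levels are given as normalized read counts, the raw counts divided by 1 size factor per library. The counts refer to mature miRNAs of nearly the same length, and efficiencies of ligation that differ between sequences were not measured. Averaged over the 11 libraries, *miR-34a* was at 802 ± 160.0 (SD, n = 11), *miR-34c* at 166 ± 66.6, *miR-449a* at 19.5 ± 9.08 and *miR-34b* at 12.5 ± 7.19. Among the 754 miRNAs with at least 1 read, these means had the ranks 126, 185, 319 and 344. Together the 6 members took 0.0101% ± 0.00142 (SD, n = 11) of the counts summed over all rows in a library. These sums were between 6087865 and 16808976 per library, so that 3 reads corresponded to shares between 1.78e-05% and 4.93e-05%. The sums ran from 7431936 to 16808976 for Holstein and from 6087865 to 11395785 for Montbéliarde. Their medians were 1.08e+07 and 9.11e+06, respectively, so that depth differed between the breeds. Some rows had the same mean and SD, such as *let-7b* and *miR-3596* with a mean of 45100.6 each. A read may thus enter the sums more than once, which would make the shares too low.

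The order of the first pair did not depend on the cow. *MiR-34a* was above *miR-34c* in 11 of 11 libraries, with a ratio between 2.96 (CNLX1) and 22.5 (CNLX21) and a median of 4.53. *MiR-34c* was above *miR-449a* in 11 of 11 libraries, by 1.70 times (CNLX21) to 32.6 times (CNLX3). *MiR-449a* and *miR-34b* were not separated, since *miR-449a* was the higher in 8 of 11 libraries and their ranges overlapped. *MiR-34b* was above *miR-449b* in every library.

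**Figure D1:**
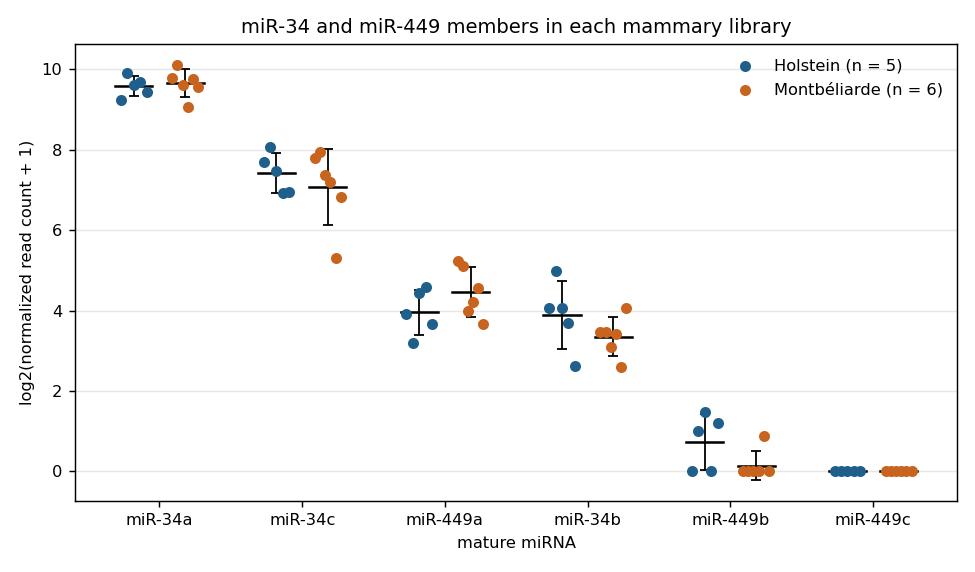
Level of each member as log2(normalized read count + 1) on the vertical axis, with 1 point per library, the mean as a horizontal bar and the SD as an error bar, for 5 Holstein (blue) and 6 Montbéliarde (orange) libraries. The levels step down from *miR-34a* to *miR-449c*, which is at 0 in every library, and the breeds overlap for each member that has reads.

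*MiR-34a*, the member best known as an effector of p53, showed no difference between the breeds beyond the spread between cows. In Holstein, its normalized read count was 608 in CNLX1, 966 in CNLX3, 784 in CNLX5, 824 in CNLX7 and 696 in CNLX9. In Montbéliarde, the lowest value was 535 (CNLX19), the median 825 and the highest 1109.7 (CNLX15). The breeds overlapped, with the lowest and the highest value of all libraries both in Montbéliarde. Holstein averaged 776 ± 135 (SD, n = 5), against 823 ± 188 (SD, n = 6) for Montbéliarde. The log2FC, given throughout as Montbéliarde over Holstein, was 0.07 (standard error 0.19, with a Benjamini-Hochberg adjusted p = 0.886 by the quasi-likelihood test of edgeR). Its 95% interval ran from -0.33 to 0.48, which is a fold between 0.798 and 1.39. At a depth of 518 to 1299 raw reads per library, counting error alone corresponded to a SD of 0.05 on the log2 scale, against 0.31 between cows of the same breed.

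*MiR-34c* varied more than *miR-34a*. Its normalized read count was 205 in CNLX1, 267 in CNLX3, 177 in CNLX5, 121 in CNLX7 and 122 in CNLX9 of Holstein. In Montbéliarde it was 38.9 in CNLX21, the lowest library, with a median of 156 and a highest value of 245 in CNLX15. The breeds overlapped, and CNLX21 stood well below the next library, CNLX23, at 112. Holstein averaged 179 ± 61.2 (SD, n = 5), against 155 ± 74.6 (SD, n = 6) for Montbéliarde, and without CNLX21 the Montbéliarde mean was 178 ± 54.1 (SD, n = 5). The log2FC was -0.23 (standard error 0.35, 95% interval -0.98 to 0.53, adjusted p = 0.813 by the same edgeR test). It was 0.014 without CNLX21 and 0.0080 without CNLX3.

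The low *miR-34c* of CNLX21 was not matched by *miR-34a*, which was at 873 in that library, above the mean of its breed. *MiR-34b*, from the same precursor transcript as *miR-34c*, also had its lowest level there, 5.07, which rests on 6 reads. It was nearly as low in CNLX9 of Holstein, at 5.21 from 4 reads, where *miR-34c* was at 122. The summed level of the epithelial miRNAs was the lowest of all libraries in CNLX21, at 180093 normalized reads. It was nearly as low in CNLX15, at 181193, in which *miR-34c* had its highest Montbéliarde level. The stromal miRNAs (*miR-143*, *miR-145*, *miR-199a-3p*, *miR-199a-5p* and *miR-214*) held 32.9% of the summed counts in CNLX21 and 33.9% in CNLX15, against 15.97% to 28.6% in the other libraries. *MiR-143* alone made up between 99.3% and 99.6% of this stromal sum, and *miR-141* between 56.1% and 78.1% of the epithelial sum. Without *miR-141*, the epithelial sum was lowest in CNLX15, at 49635, and next lowest in CNLX21, at 71182. The part of tissue make-up in the level of *miR-34c* was not tested.

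*MiR-34b* was a minor product beside *miR-34c* in both breeds. In Holstein, its normalized read count was 15.8 in CNLX1, 30.7 in CNLX3, 15.7 in CNLX5, 11.9 in CNLX7 and 5.21 in CNLX9. The Montbéliarde values ran from 5.07 (CNLX21) through a median of 9.84 to 15.7 (CNLX23). Only CNLX3 and CNLX1 of Holstein were above all Montbéliarde libraries, and the latter by a narrow margin. Holstein averaged 15.9 ± 9.35 (SD, n = 5), against 9.66 ± 3.53 (SD, n = 6) for Montbéliarde. Of the members tested, *miR-34b* had the log2FC of largest size, -0.70 (standard error 0.39, 95% interval -1.53 to 0.14), which did not pass the threshold (adjusted p = 0.412 by the same edgeR test, unadjusted p = 0.0950). The log2FC was -0.30 without CNLX3. With 4 to 30 raw reads per library, counting error alone gave a SD of 0.48 on the log2 scale, computed on raw counts without an added 1. The SD observed between cows of the same breed was 0.67 with 1 added, which narrows the spread at low counts, so that the 2 SDs are not fully alike.

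The reads of *miR-34b* were 0.0841 ± 0.0271 (SD, n = 5) times those of *miR-34c* in Holstein, against 0.0780 ± 0.0452 (SD, n = 6) for Montbéliarde. Over all libraries this ratio lay between 0.0408 and 0.140. How the study counted reads that match more than 1 miRNA is not stated in the sources used here. Some other rows had the same mean and SD, such as *let-7b* and *miR-3596*, so that reads may have been counted in more than 1 row. Whether *miR-34b* and *miR-34c* shared reads in this way was not tested, so that the split between these related sequences is uncertain. No other miRNA of the table had counts in a constant ratio (within 1%) to a tested member.

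The miR-449 branch was represented almost only by *miR-449a*. Its normalized read count was 14.05 in CNLX1, 8.19 in CNLX3, 20.5 in CNLX5, 23.1 in CNLX7 and 11.7 in CNLX9 of Holstein. In Montbéliarde, it was between 11.8 (CNLX23) and 36.7 (CNLX13), with a median of 20.1. The breeds overlapped, although CNLX13 and CNLX15 were above every Holstein library. Holstein averaged 15.5 ± 6.17 (SD, n = 5), against 22.9 ± 10.2 (SD, n = 6) for Montbéliarde. The log2FC was 0.49 (standard error 0.36, 95% interval -0.29 to 1.27, adjusted p = 0.551 by the same edgeR test). These levels rest on 8 to 35 raw reads per library.

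The other miR-449 miRNAs could not be compared. *MiR-449b* had 3 reads in CNLX5 and 1 read in each of CNLX3, CNLX9 and CNLX21, and none in the other libraries. *MiR-449c* had no read in any of the 11 libraries, which allows a share of up to 2.67e-06% of the 112475288 counts summed over all rows and libraries. Such limits and intervals hold for counting error alone, because copies made by PCR could not be recognised. Transcripts of *CDC20B* itself were not measured, because the libraries hold small RNA.

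**Figure D2:**
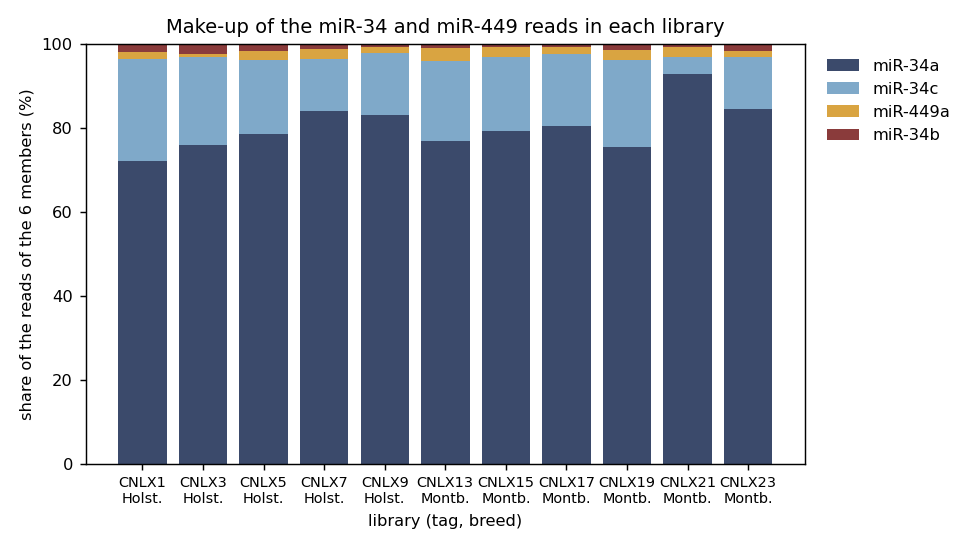
Share of each member in the reads of the 6 members together (vertical axis, %), with 1 bar per library labelled by tag and breed. *MiR-34a* holds between 72.1% (CNLX1) and 92.8% (CNLX21), and *miR-34c* most of the rest, and *miR-449b* and *miR-449c* are too rare to be drawn.

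The shares of the members in their summed reads were compared between the breeds without a test. *MiR-34a* held 78.7% ± 5.005 (SD, n = 5) of the members' reads in Holstein, against 81.6% ± 6.34 (SD, n = 6) for Montbéliarde. *MiR-34c* held 18.02% ± 4.80 and 15.2% ± 6.09, respectively. The share of *miR-34c* was lowest in CNLX21, at 4.13% (Wilson 95% confidence interval 3.11 to 5.47%), and highest in CNLX1, at 24.3% (21.7 to 27.2%), so that the difference between these cows exceeded counting error. *MiR-449a* held between 0.643% and 3.19% of the members' reads in single libraries, with means of 1.62% ± 0.658 for Holstein and 2.22% ± 0.686 for Montbéliarde. *MiR-34b* held 1.54% ± 0.675 and 1.001% ± 0.456, respectively. The level of the 6 members added up to 987 ± 177 (SD, n = 5) for Holstein, against 1011 ± 236 (SD, n = 6) for Montbéliarde.

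None of the 4 members tested passed an adjusted p of 0.05 with edgeR, and none reached 0.05 before adjustment. DESeq2 and limma-voom also called 0 members. Of all 550 miRNAs tested with edgeR, 0.364% passed the adjusted limit and 14.2% reached 0.05 before adjustment. With DESeq2, 4.86% of 432 miRNAs passed, and with limma-voom 0.364% of 550. No member separated the breeds in every library, as did 2% of all miRNAs tested. The log2FC was above 0 for *miR-34a* and *miR-449a* and below 0 for *miR-34b* and *miR-34c*. The median log2FC of the 4 members was -0.08, beside 0.03 over all miRNAs tested. A log2FC of 1 in size lies within the intervals of *miR-34b* and *miR-449a* and outside those of *miR-34a* and *miR-34c*, in the latter case by a narrow margin.

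**Figure D3:**
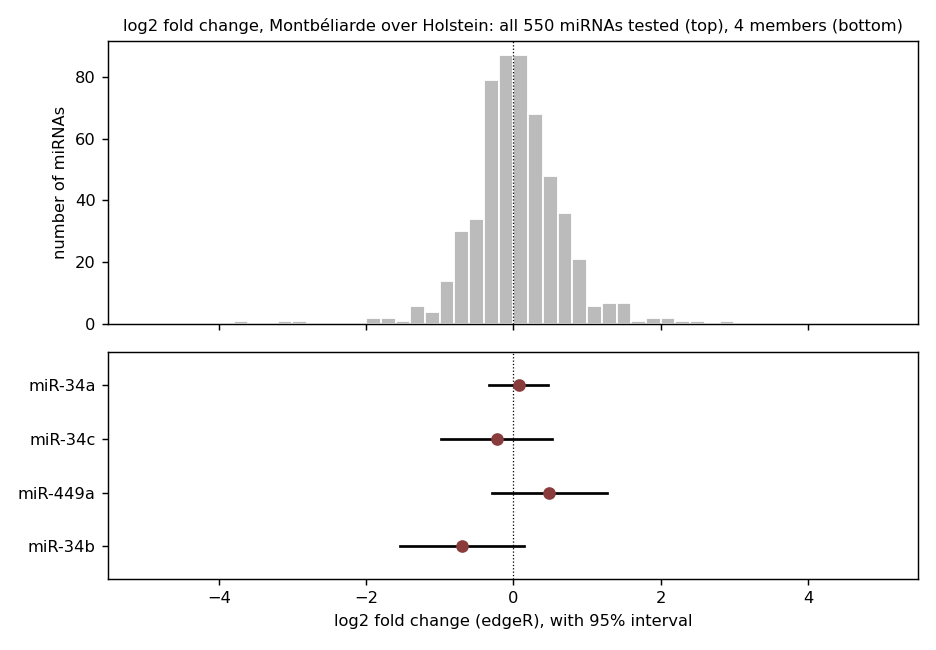
Distribution of the log2 fold changes of all 550 miRNAs tested (top, number of miRNAs) and the log2 fold changes of the 4 members tested with their 95% intervals (bottom), Montbéliarde over Holstein, from edgeR. Each of the 4 intervals includes 0, and the narrowest, that of *miR-34a*, runs from -0.33 to 0.48.

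Cows of the same breed differed more in *miR-34c* than in most miRNAs of like level. The SD within breeds of log2(normalized read count + 1) was 0.78 for *miR-34c*, against a median of 0.38 over the 67 other miRNAs whose mean was within 2-fold of its own, of which 59 had a smaller SD. Counting error accounts for a SD of 0.13 at this depth. Without CNLX21 the SD of *miR-34c* fell to 0.47, and 44 of 66 miRNAs of like level had a smaller one. *MiR-34a*, with a SD of 0.31, was close to the median of 0.35 over the 49 miRNAs of like level. For *miR-34b* and *miR-449a* the SDs of 0.67 and 0.60 were near the medians of their like, 0.62 and 0.55.

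**Figure D4:**
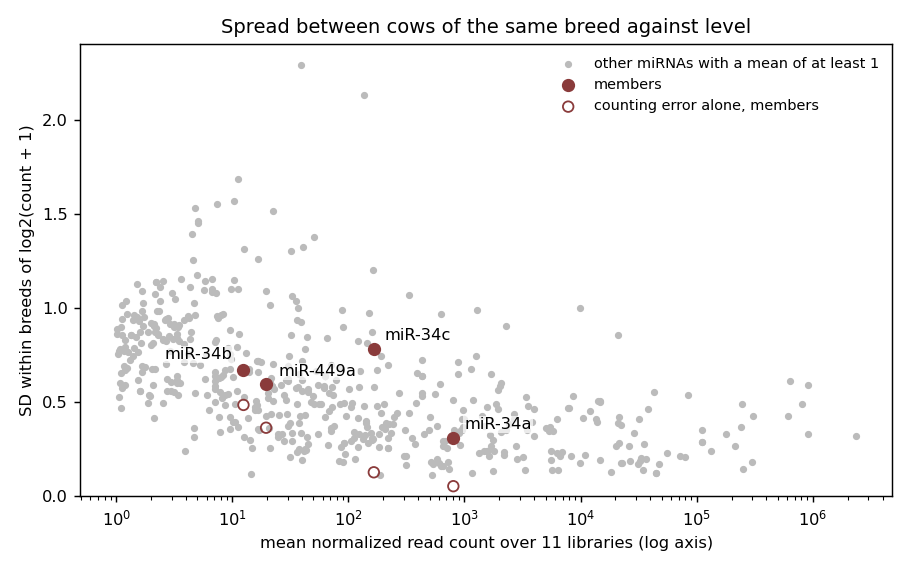
SD within breeds of log2(normalized read count + 1) (vertical axis) against the mean normalized read count over 11 libraries (horizontal log axis), for the 4 members with enough reads (filled red) and the other miRNAs with a mean of at least 1 (grey), with the SD that counting error alone would give each member (open red). *MiR-34c* lies above most miRNAs of its level at 0.78. The SD from counting error alone is 0.48 beside 0.67 for *miR-34b* and 0.36 beside 0.60 for *miR-449a*, computed without the added 1 and thus not fully on the same scale.

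Members with at least 5 reads in every library were compared across the cows, which left *miR-34a*, *miR-34c* and *miR-449a* and thus 3 pairs. On the scale of log2(normalized read count + 1), *miR-34a* and *miR-34c* had a Pearson's r of 0.13 (permutation p = 0.685, adjusted p = 0.915 over the 3 pairs) and a Spearman's rho of 0.43 (permutation p = 0.193, adjusted p = 0.290). Without the 2 libraries farthest from the median of *miR-34a*, r was -0.05. *MiR-34a* and *miR-449a* had an r of 0.35 (permutation p = 0.299, adjusted p = 0.897) and a rho of 0.45 (permutation p = 0.172, adjusted p = 0.290), with r at 0.19 without the 2 farthest libraries and at 0.67 without CNLX3 alone. *MiR-34c* and *miR-449a* had an r of -0.04 (permutation p = 0.915, adjusted p = 0.915) and a rho of 0.04 (permutation p = 0.924, adjusted p = 0.924), with r at 0.67 without CNLX3 and CNLX21. No pair passed the limit of 0.05. Within the 6 Montbéliarde libraries r was 0.13, 0.61 and 0.32 for these pairs, and no value was computed within the 5 Holstein libraries.

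*MiR-34b* and *miR-34c*, which share a precursor transcript, were compared after the values had been seen, since CNLX9 held only 4 reads of *miR-34b*. Their r was 0.61 (permutation p = 0.0518, adjusted p = 0.207 over 4 pairs) and their rho 0.46 (permutation p = 0.153, adjusted p = 0.257). Without CNLX3 and CNLX21, the 2 libraries farthest from the median of *miR-34b*, r was 0.13, though leaving out the ends also narrows the range. It was 0.52 without CNLX3 alone and 0.43 without CNLX21 alone. Within Montbéliarde r was 0.54 (n = 6, permutation p = 0.283). With breed means subtracted it was 0.57.

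**Figure D5:**
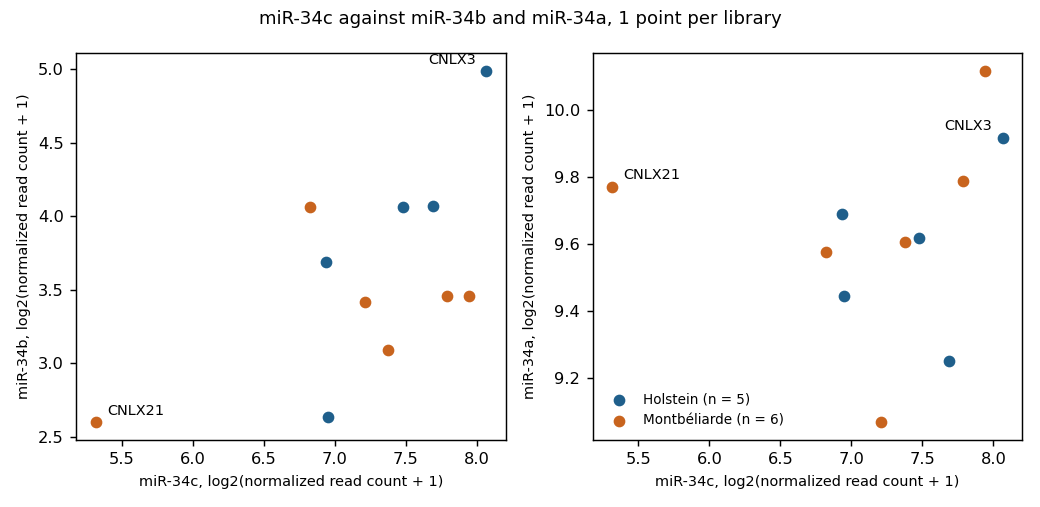
*MiR-34c* (horizontal axes) against *miR-34b* (left) and *miR-34a* (right), each as log2(normalized read count + 1), with 1 point per library in blue for Holstein and orange for Montbéliarde. CNLX21 and CNLX3 mark the ends of the left plot, where r is 0.61 with them and 0.13 without them, and CNLX21 is low in *miR-34c* alone in the right plot.

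The miRNAs with the most similar pattern over the 11 libraries were listed for each tested member, as the highest Pearson's r among 308 known miRNAs with a mean normalized read count of at least 20. They describe these libraries, share their depth and scaling, and were picked for their r, so that no p is given. For *miR-34a* they were *miR-24-3p* (r = 0.80), *miR-10a* (0.77) and *miR-146a* (0.76), the last of which is known as a regulator of inflammatory signalling. For *miR-34c* they were *miR-184* (r = 0.70), *miR-760-3p* (0.69) and *miR-374a* (0.63), and the r of *miR-184* was 0.46 when 1 library was left out. For *miR-449a* they were *miR-142-5p* (r = 0.82), which is known as a miRNA of blood cells, *miR-31* (0.79) and *miR-2285bm* (0.77). For *miR-34b* they were *miR-29b* (r = 0.75), *miR-33a* (0.68) and *miR-188* (0.66). No member was among the 3 miRNAs most like another, because members were set aside from this list.

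Other miRNAs that are known to depend on p53 for their transcription or processing were examined as a list of 11, namely *miR-192*, *miR-194*, *miR-215*, *miR-143*, *miR-145*, *miR-15a*, *miR-16a*, *miR-16b*, *miR-107*, *miR-200c* and *miR-205*, of which *miR-143*, *miR-145*, *miR-200c* and *miR-205* are also among the tissue markers. Of these 11, 1 passed the threshold, *miR-16a*, which was higher in Holstein, beside 0.364% of all miRNAs tested. None passed in the other direction. Before adjustment 4 of the 11 reached 0.05, beside 14.2% of all miRNAs tested, and the median log2FC of the list was -0.11. The 4 differed in direction, with *miR-16a*, *miR-16b* and *miR-200c* lower in Montbéliarde and *miR-143* higher. *MiR-16a* averaged 14054 ± 1743 (SD, n = 5) for Holstein, against 8193 ± 1320.0 (SD, n = 6) for Montbéliarde, and its log2FC was -0.79 (standard error 0.15, adjusted p = 0.0370 by the same edgeR test). Its sequence is close to that of *miR-16b*, so that the split of reads between them is uncertain, and *miR-16b* had a log2FC of -0.43 (standard error 0.16, adjusted p = 0.231 by the same edgeR test). Its adjusted p was between 0.0903 and 0.288 without CNLX1, CNLX3, CNLX5, CNLX7, CNLX15, CNLX19 or CNLX21, so that the call was lost without any 1 of these libraries. It was also lost with RLE size factors (adjusted p = 0.0524) and with the library total as a covariate (adjusted p = 0.119). Over all alternatives the adjusted p ran from 0.000116, with DESeq2, to 0.288, without CNLX1. The study, which used DESeq2, also reported *miR-16a* as higher in Holstein. The next lowest p of the list was that of *miR-143*, whose log2FC was 0.58 (standard error 0.18, adjusted p = 0.171 by the same edgeR test). *MiR-192*, *miR-194* and *miR-215*, which p53 activates directly, had log2FCs of 0.25, -0.11 and -0.02, none of which passed.

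The marker miRNAs of the tissue's cell types gave the setting of these levels. Summed normalized read counts of the epithelial miRNAs ran from 367535 to 466746 for Holstein, and from 180093 to 469496 for Montbéliarde. *MiR-141* made up between 56.1% and 78.1% of this sum. Without it, the sum ran from 92623 to 119029 for Holstein, and from 49635 to 115736 for Montbéliarde. The epithelial miRNAs differed in direction. The log2FC was -0.74 for *miR-141*, -0.61 for *miR-200c*, -0.33 for *miR-429*, -0.10 for *miR-200b*, -0.04 for *miR-200a* and 0.38 for *miR-205*. The leukocyte sums (*miR-142-5p*, *miR-142-3p*, *miR-150*, *miR-155* and *miR-223*) ran from 18031 to 26952 for Holstein, and from 17229 to 39422 for Montbéliarde. *MiR-142-5p* made up between 84.0% and 90.7% of the leukocyte sum. *MiR-449a* was highest in CNLX13 and CNLX15, where the leukocyte sums were 32396 and 39422. In CNLX21, CNLX7 and CNLX5 the leukocyte sums were 33142, 26952 and 25165, with *miR-449a* at 22.8, 23.1 and 20.5. Each of these *miR-449a* levels was above its mean of 19.5 over the 11 libraries, and both measures were lower in the remaining libraries. *MiR-142-5p*, the bulk of this sum, had already been listed as most like *miR-449a* (r = 0.82), so that this is no separate observation. As a covariate, the epithelial level was taken as the mean of log2(normalized read count + 1) over the 6 epithelial miRNAs, not as their sum. With it, the log2FC was 0.33 for *miR-449a*, -0.047 for *miR-34a*, -0.60 for *miR-34b* and -0.21 for *miR-34c*. Of these lists, no epithelial, stromal or leukocyte miRNA passed the edgeR threshold, and 2 of 6 epithelial, 2 of 5 stromal and 0 of 5 leukocyte miRNAs reached 0.05 before adjustment, beside 14.2% of all miRNAs tested. The endothelial, erythroid and muscle lists likewise had 0 miRNAs past the threshold. The part of cell make-up in the levels of the members was not tested beyond this covariate.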

How the data were processed

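Small RNA was sequenced from MG biopsies of 5 Holstein and 6 Montbéliarde cows. According to its methods, the study removed adaptors and ambiguous reads, retained lengths from 15 to 40 nt, aligned the rest to a bovine assembly with miRDeep2, which also identified the mature miRNAs, and used the ncPRO-seq pipeline for quantification and annotation. The authors deposited raw counts of each mature miRNA. They also deposited a signal called normalized read count, obtained by dividing counts by DESeq2 size factors (DESeq2 1.18.1 per the submitters' processing notes). These factors were recomputed with a difference of 0%. Log2 fold changes, p-values and means per breed were deposited by the authors too and were not used.

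Breeds were compared on every miRNA that reached 10 counts in total, using edgeR 4.0.16 in R 4.3.3 (TMM, robust quasi-likelihood fit, Benjamini-Hochberg adjustment, limit 0.05). DESeq2 1.42.0 and limma 3.58.1 served as alternatives, beside other scaling, filters, covariates and each library left out in turn. Standard errors were derived from the F statistic. Correlations used 100000 permutations, two-sided. The edgeR script was tested on simulated data. Plots were drawn with matplotlib 3.10.9.

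The members, the lists and the rules for naming miRNAs were chosen with earlier results of these data known. Named were the 6 members, the 3 miRNAs most like each tested member, and the p53-linked list with values for those past the threshold and the 2 with the lowest p. Values of *miR-16b*, *miR-192*, *miR-194* and *miR-215* were added outside this rule, after they had been seen. The same holds for the log2FCs of the single epithelial miRNAs. A part of the naming rule that needed seed sequences was not applied. Of the listed markers, *miR-203* and *miR-206* had no row of that exact name and were not used. The 6 member genes were matched by name in the RefSeq annotation of ARS-UCD2.0. Sequences, RT-qPCR and milk yields were not analysed here.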

Additional observations from a re-analysis of the deposited data

How the results depend on the processing

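No member passed the threshold under any of the 20 alternative fits. The log2FC kept its sign for *miR-34b* (-0.92 to -0.30) and *miR-449a* (0.32 to 0.70) in all 21 alternatives, the exact permutation test of the log2 levels included. For *miR-34a* it was between -0.047 and 0.22, and negative (-0.047) with the epithelial level as a covariate only. For *miR-34c* it was between -0.52 and 0.014, and between -0.36 and 0.014 when 1 library at a time was left out, with values above 0 without CNLX3 (0.0080) or CNLX21 (0.014). The adjusted p-values of the members ranged from 0.252 to 0.992 over the fits. The log2 ratio of the breed means of the summed members was 0.03, between -0.08 and 0.14 over its alternatives, all moved by less than the spread between cows. The number of all miRNAs past the threshold was 2 with edgeR, 21 with DESeq2, 0 with RLE factors, 1 with library totals alone and between 0 and 6 when 1 library at a time was left out. On leaving out single libraries, r was between -0.052 and 0.50 for *miR-34a* with *miR-34c*, between 0.12 and 0.67 for *miR-34a* with *miR-449a* (past 0.05 without CNLX3 alone, unadjusted), between -0.22 and 0.21 for *miR-34c* with *miR-449a*, and between 0.43 and 0.67 for *miR-34b* with *miR-34c* (past 0.05, unadjusted, without CNLX13, CNLX15 or CNLX23). The r of *miR-34c* with *miR-449a* was 0.0060 with a pseudocount of 10, 0.32 within Montbéliarde and 0.072 with breed means subtracted. The causes were not tested. No paired analysis was possible because the labels pair no cow of one breed with a cow of the other. *MiR-34b* and *miR-449a* are limited by depth as well as by the number of cows.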
